A study of Mus musculus with 146 samples.

Results

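Microglia of Ifngr ko/fl mice with EAE (experimental autoimmune encephalomyelitis, used to model multiple sclerosis) were compared with microglia of Ifngr ko/wt mice by the mRNA on their tagged ribosomes. The comparison rests on 8 anti-HA libraries, 4 of ko/fl and 4 of ko/wt mice, out of 146 libraries in the series, and on all 204 genes of the table that holds them. The ko/fl mice were Cx3cr1-CreER:RPL22-HA:Ifngr ko/fl, with a knockout allele and a floxed allele of the interferon gamma receptor. The ko/wt mice were Cx3cr1-CreER:RPL22-HA:Ifngr ko/wt, so they carried the same knockout allele beside a wild-type allele, and the same Cre and tag. The knockout allele was present in every cell of both genotypes, and the floxed allele is open to Cre only in cells that express Cx3cr1, which outside microglia include other macrophages. All mice were F1 of C57BL/6 * SJL and were gavaged with 5 mg tamoxifen on 4 alternate days when 4 to 6 weeks old. The labels name relapsing remitting EAE but no stage, give no age at sampling, and do not say whether the 4 numbered libraries of a genotype came from separate animals. The p-values therefore measure only the spread between these libraries.

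Interferon gamma, made mainly by T and NK cells, binds a receptor of IFNGR1 and IFNGR2 chains and signals through the kinases JAK1 and JAK2. Transcription at gamma-activated sites (GAS) switches on IRF1, which binds interferon-stimulated response elements (ISRE), and CIITA, the master activator of MHC class II genes. In macrophages and microglia the pathway is known for antigen presentation, interferon-inducible GTPases and the chemokines that attract CXCR3-bearing T cells.

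In a RiboTag experiment the ribosomal protein RPL22 carries an HA tag in the cells where Cre was active, and anti-HA antibody pulls down tagged ribosomes with their mRNA from brain homogenate. A library made with mouse IgG1 of the same homogenate measures background, and an input library measures the whole homogenate. Values are normalised values, a gene's reads after division by the size factor that scales its library, and serve to compare libraries and not genes of different length. Over the 204 genes, the anti-HA libraries held 136064 to 324031 reads in ko/fl and 206641 to 589041 reads in ko/wt mice, the IgG libraries 4360 to 17987 reads and the inputs 46467 to 202176 reads, so low genes are counted least precisely in IgG. The library numbered 4 of each genotype held the fewest reads of its group (136064 in ko/fl, 206641 in ko/wt). Both stood apart from the other 6 on the second principal component, which carried 10.4% of the variance. The first, the axis of genotype, carried 77.5%. The components were taken over the 204 genes, which the authors chose for differing between these genotypes, so that first axis was fixed by the choice. Among 11 lists of markers of other brain and blood cells, border macrophages, neutrophils, T and NK cells, B and plasma cells, neurons, astrocytes, endothelium and erythroid cells had no gene in the table, nor were Tmem119, P2ry12 or Cx3cr1 among its genes. Since the table was chosen by genotype difference, a marker's presence or absence in it does not show which cells were pulled down. The label microglia therefore rests on the tag. Fcrls and Gp9 are the only 2 of 26 listed homeostatic microglia genes that the table holds.

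The 204 genes were chosen by the authors on these same libraries. In the authors' deposited table each has an adjusted p below 0.05 for this comparison, the largest being 0.0488, and each an absolute log2 fold change of at least 0.589. A call here is thus no independent evidence of a difference, and what the data add is which genes, how far, and in which libraries. Differences were tested with limma on log2(value + 1), with Benjamini-Hochberg adjustment over the 204 genes, and a gene was called at an adjusted p below 0.05. All log2 differences below are ko/fl minus ko/wt on that scale, which understates the change of low genes.

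Of the 204 genes, 199 were called, which is 97.5%. In ko/fl microglia 125 genes were called lower (61.3%) and 74 called higher (36.3%), and the median difference over all 204 was -1.05. By means on the deposited scale, 45 genes were at least 4-fold lower in ko/fl and 11 at least 4-fold higher. The libraries of the genotypes did not overlap for 163 genes (79.9%), with all of ko/fl below all of ko/wt for 111 (54.4%) and above them for 52 (25.5%). The 5 genes that missed the threshold were Vcam1, Fabp5, Vat1, Slpi and Fn1. In a bulk pull-down, fewer cells of a type and less RNA per cell cannot be told apart. Rescaling the libraries by the median of ratios over these 204 genes, which moves the median difference by 0.68, gave 78 genes higher and 72 lower, so that lower genes made 48% of the calls against 62.8% with the deposited scaling. The direction of 2 genes, Fen1 and Rnf19b, turned under it.

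**Figure D1:**
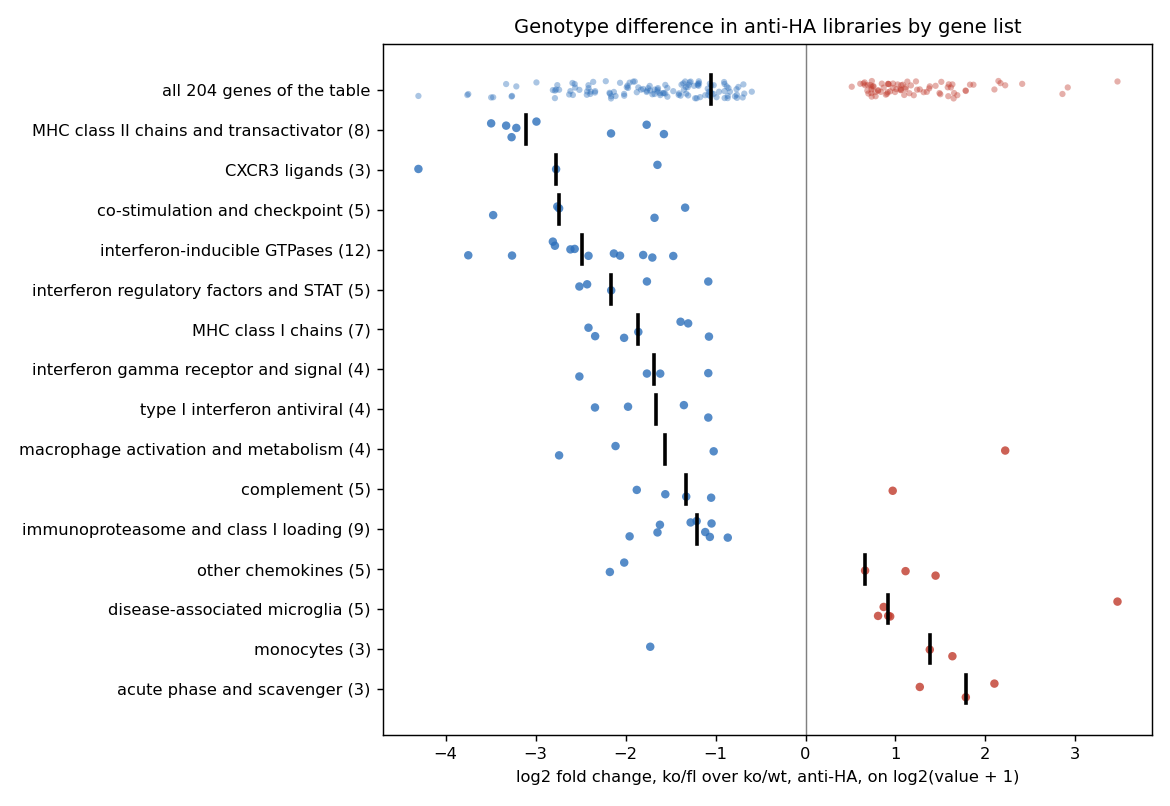
Log2 difference, ko/fl minus ko/wt, of the genes of each list (points) in the anti-HA libraries, with the list median as a line. The MHC class II, CXCR3 ligand and GTPase lists lie wholly to the left of 0, and the acute phase and disease-associated lists wholly to the right. Lists with fewer than 3 measured genes are not drawn.

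The genotypes are written as Ifngr, without naming a chain of the receptor. Ifngr1, the ligand-binding chain (chr10:19591949-19610229, plus strand, mm10), had values of 81.0, 88.4, 127 and 76.7 in ko/fl libraries, against 299.9, 305, 299 and 232 in ko/wt libraries. The groups did not overlap, and both lay above their IgG libraries, which reached 17.3 in ko/fl and 20.5 in ko/wt mice. Ifngr1 fell in ko/fl microglia to 32.9% of the ko/wt mean, a log2 difference of -1.62 ± 0.24 (SE, n = 4 each, limma adjusted p = 0.00036). In the inputs it was 10.1, 10.7, 17.1 and 19.7 in ko/fl and 21.1, 15.0, 13.3 and 23.8 in ko/wt homogenates, groups that overlapped (log2 difference -0.34, limma adjusted p = 0.88). The counts are per gene, so reads from a deleted and an intact allele cannot be told apart. Ifngr2, Jak1 and Jak2 are not among the 204 genes.

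The regulators below the receptor that the table holds were all lower in ko/fl microglia. Of 12 listed receptor and signal genes 4 were measured and of 18 listed IRF and STAT genes 5. Every one was called lower, as were 125 of all 204 genes (61.3%). The list medians were -1.69 and -2.16, against -1.05 over all 204 genes. The lists share genes, Stat2 and Socs1 among them. Irf1, a transcription factor that interferons induce (chr11:53770014-53778374, plus strand), had values of 210.4, 204, 245 and 375 in ko/fl libraries, against 899, 1024, 1002 and 1735 in ko/wt libraries. The library numbered 4 was the highest of each genotype, and the groups did not overlap. Irf1 fell to 22.2% of the ko/wt mean, by 2.16 ± 0.30 on the log2 scale (SE, n = 4 each, limma adjusted p = 0.00024). Socs1, an inhibitor of JAK kinases that the pathway itself induces, had 18.8, 16.8, 15.5 and 31.2 in ko/fl, against 87.7, 129.9, 117 and 144 in ko/wt libraries. Its ko/fl values lay within the range of its ko/fl IgG values, 8.63 to 43.1, so what ribosomes of these cells carried could not be told from background. It fell by 2.51 ± 0.28 (SE, n = 4 each, limma adjusted p = 0.00014).

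Stat2, a factor of type I interferon signalling, fell by 1.08 ± 0.22 (limma adjusted p = 0.002), and Batf2, a basic leucine zipper factor of activated macrophages, by 2.43 ± 0.37 (limma adjusted p = 0.00049). The call for Stat2 was lost under median-of-ratios scaling (adjusted p = 0.185).

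Promoters were read for the members whose regulation the pathway's factors are best known for, and for Spp1, which went the other way. Promoters of 151 of the 204 genes were in the RefSeq table (GRCm38.p6). A script searched the 250 bases before and 50 bases after each start, on both strands, for 3 short motifs: GAS, the site of the interferon gamma response, ISRE, bound by IRF factors, and the Y box of MHC promoters, bound by NF-Y. The 250 bases before the start are given 5′ to 3′ on the gene's strand with the matches in capitals. Irf1 has a GAS 90 to 82 bases before the start, Gbp2 an ISRE at 59 to 50, and Gbp5 a GAS at 245 to 237, an ISRE at 165 to 156 and a GAS at 52 to 44. H2-Aa and H2-Eb1 have a Y box at 51 to 44 and at 62 to 55, Cxcl10 an ISRE at 213 to 204 and a Y box at 54 to 47, and Spp1 an ISRE at 157 to 148 and a Y box at 49 to 42. For Irf1 and Spp1 the table holds 2 windows and the first is shown.
Irf1 (chr11:53769764-53770013, plus strand): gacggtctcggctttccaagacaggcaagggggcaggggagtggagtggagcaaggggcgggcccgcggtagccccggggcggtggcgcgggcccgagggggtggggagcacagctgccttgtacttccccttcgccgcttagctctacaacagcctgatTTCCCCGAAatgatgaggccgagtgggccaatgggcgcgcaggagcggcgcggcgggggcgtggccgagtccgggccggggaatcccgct
Gbp2 (chr3:142620413-142620662, plus strand): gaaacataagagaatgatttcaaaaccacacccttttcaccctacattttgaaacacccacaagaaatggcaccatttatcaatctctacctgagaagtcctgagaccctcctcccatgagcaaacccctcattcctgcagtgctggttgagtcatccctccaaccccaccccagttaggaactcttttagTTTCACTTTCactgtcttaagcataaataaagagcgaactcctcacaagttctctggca
Gbp5 (chr3:142496684-142496933, plus strand): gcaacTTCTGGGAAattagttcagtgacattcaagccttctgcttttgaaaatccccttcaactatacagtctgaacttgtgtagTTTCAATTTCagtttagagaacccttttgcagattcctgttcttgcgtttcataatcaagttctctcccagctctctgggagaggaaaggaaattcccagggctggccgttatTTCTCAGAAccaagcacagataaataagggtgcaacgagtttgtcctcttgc
Cxcl10 (chr5:92348890-92349139, minus strand): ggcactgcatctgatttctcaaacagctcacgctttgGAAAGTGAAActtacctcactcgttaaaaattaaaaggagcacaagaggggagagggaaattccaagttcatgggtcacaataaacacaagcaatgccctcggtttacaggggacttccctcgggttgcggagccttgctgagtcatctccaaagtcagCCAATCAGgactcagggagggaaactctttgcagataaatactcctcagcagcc
H2-Aa (chr17:34287824-34288073, minus strand): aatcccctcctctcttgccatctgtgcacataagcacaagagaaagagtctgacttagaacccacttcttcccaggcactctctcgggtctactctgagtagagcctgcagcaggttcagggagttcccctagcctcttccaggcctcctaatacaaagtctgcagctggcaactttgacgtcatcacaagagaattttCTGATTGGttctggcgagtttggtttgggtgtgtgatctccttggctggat
H2-Eb1 (chr17:34305617-34305866, plus strand): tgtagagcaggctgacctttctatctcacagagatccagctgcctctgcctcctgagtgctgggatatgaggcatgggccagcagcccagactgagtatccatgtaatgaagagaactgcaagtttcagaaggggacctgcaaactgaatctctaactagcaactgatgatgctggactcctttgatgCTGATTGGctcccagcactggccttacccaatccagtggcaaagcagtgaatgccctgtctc
Spp1 (chr5:104434861-104435110, plus strand): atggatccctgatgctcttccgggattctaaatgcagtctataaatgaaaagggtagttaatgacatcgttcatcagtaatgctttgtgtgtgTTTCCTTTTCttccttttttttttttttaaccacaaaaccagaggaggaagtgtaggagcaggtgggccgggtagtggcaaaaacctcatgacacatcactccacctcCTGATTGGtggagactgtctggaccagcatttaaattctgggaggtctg

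The 3 motifs were each found in a larger share of promoters of the lower genes than in the RefSeq table as a whole. GAS (TTCNNNGAA) was in 17.8% of the 90 lower genes with a promoter, in 6.56% of the 61 higher genes and in 9.55% of all 27025 genes of the table. ISRE (GAAA, any 2 bases, GAAA) was in 25.6% of the lower genes, 11.5% of the higher genes and 3.99% of all genes. The Y box (CTGATTGG) was in 17.8% of the lower genes and 4.70% of all genes, and among the higher genes in Spp1 alone. These shares describe letters in a window and were not tested, and no match says only that the letters are not there.

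MHC class II genes, whose products present peptides to CD4 T cells, were lower in ko/fl microglia. Of 11 listed genes 8 were measured, and all 8 were called lower without overlap of libraries, with a median of -3.10 on the log2 scale and of 9.70% of the ko/wt mean. Of all 126 genes lower in ko/fl, 125 were called and 111 had libraries that did not overlap. H2-Aa, an alpha chain (chr17:34282744-34287823, minus strand), had values of 1459.7, 1333, 1166 and 1176 in ko/fl libraries, against 8392, 20659, 22529.6 and 11084 in ko/wt libraries. The ko/fl libraries lay close together, while those of ko/wt spread more than 2-fold, with number 3 the highest for all 8 genes. H2-Aa fell to 8.19% of the ko/wt mean, by 3.50 ± 0.34 (SE, n = 4 each, limma adjusted p = 0.00014). It remained above IgG in both genotypes, where IgG values were 227 to 485 in ko/fl and 300.1 to 702 in ko/wt mice.

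Cd74, the invariant chain that escorts class II molecules, had 3965, 4086, 3159 and 2096 in ko/fl and 20344, 46096, 57128 and 17279 in ko/wt libraries, a log2 difference of -3.27 ± 0.42 (limma adjusted p = 0.00019). The beta chains H2-Ab1 and H2-Eb1 had log2 differences of -3.33 ± 0.37 and -3.22 ± 0.37 (limma adjusted p = 0.00014 for each). For H2-Ab1 the ko/fl values of 846 to 1382 overlapped the ko/fl IgG values of 512 to 1062. Ciita, the class II transactivator, had 2.96, 3.05, 0 and 2.84 in ko/fl and 7.75, 23.4, 37.5 and 29.0 in ko/wt libraries, low counts that did not stand above IgG in either genotype (log2 difference -2.99 ± 0.57, limma adjusted p = 0.0014). H2-DMa, H2-DMb1 and H2-Oa, which load peptides or regulate loading, lay nearer to ko/wt, at 29.1%, 33.4% and 20.6% of its mean, and stood above IgG in both genotypes.

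The class I pathway, which presents peptides to CD8 T cells, was also lower in ko/fl microglia, by smaller amounts. Of 23 listed class I genes 7 were measured and all were called lower (median -1.86), or 5 under median-of-ratios scaling. Over all 204 genes 125 were called lower (61.3%), or 72 under that scaling. Of 12 listed immunoproteasome and loading genes 9 were measured and all were called lower without overlap (median -1.21), where 111 of all 126 lower genes did not overlap. Nlrc5, the transactivator of class I genes, had 5.93, 10.7, 13.6 and 14.2 in ko/fl and 60.1, 50.0, 64.8 and 69.4 in ko/wt libraries. The groups lay far apart, and ko/fl values overlapped IgG, which reached 14.2 there (log2 difference -2.41 ± 0.29, limma adjusted p = 0.00014). The classical chains H2-K1 and H2-D1 stood at 39.2% and 37.2% of the ko/wt mean, and the non-classical H2-T23 at 27.7%. H2-D1 lost its call under median-of-ratios scaling (log2 difference -0.70, adjusted p = 0.0589). H2-M3, whose product presents formylated peptides, had 84.9, 82.3, 94.1 and 42.6 in ko/fl and 183, 238, 216 and 60.1 in ko/wt libraries, with the number 4 library lowest in each and groups that overlapped. Its limma adjusted p of 0.041 became 0.112 without ko/fl library 4, and was also above 0.05 without ko/fl library 1 or 2 or ko/wt library 1, 2 or 3 (0.0547 to 0.11). It was 0.405 under median-of-ratios scaling, 0.095 with the IgG mean taken off and 0.0512 with a pseudocount of 0.1. Class I genes resemble each other closely and the mice carry SJL alleles, so reads may be split between H2-K1, H2-D1, H2-Q4 and H2-Q6 in ways that the counting fixed.

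All 9 immunoproteasome and loading genes stood above IgG in both genotypes. Psmb9, a catalytic subunit of the immunoproteasome, had 400.0, 385, 342 and 355 in ko/fl and 1017, 1191, 1319 and 1132 in ko/wt libraries, with little spread within either group. It fell to 31.8% of the ko/wt mean, by 1.65 ± 0.20 (SE, n = 4 each, limma adjusted p = 0.00014). Tap1, a chain of the peptide transporter, was at 25.9%, Tapbpl, a peptide editor, at 32.2%, and Psmb8 at 41.1%. The smallest change was that of Psmb10, at 54.4%. Under median-of-ratios scaling Psmb10, Psme1, Psme2, Tap2 and Erap1 missed the threshold, with adjusted p of 0.561, 0.333, 0.137, 0.155 and 0.165, and kept their direction.

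**Figure D2:**
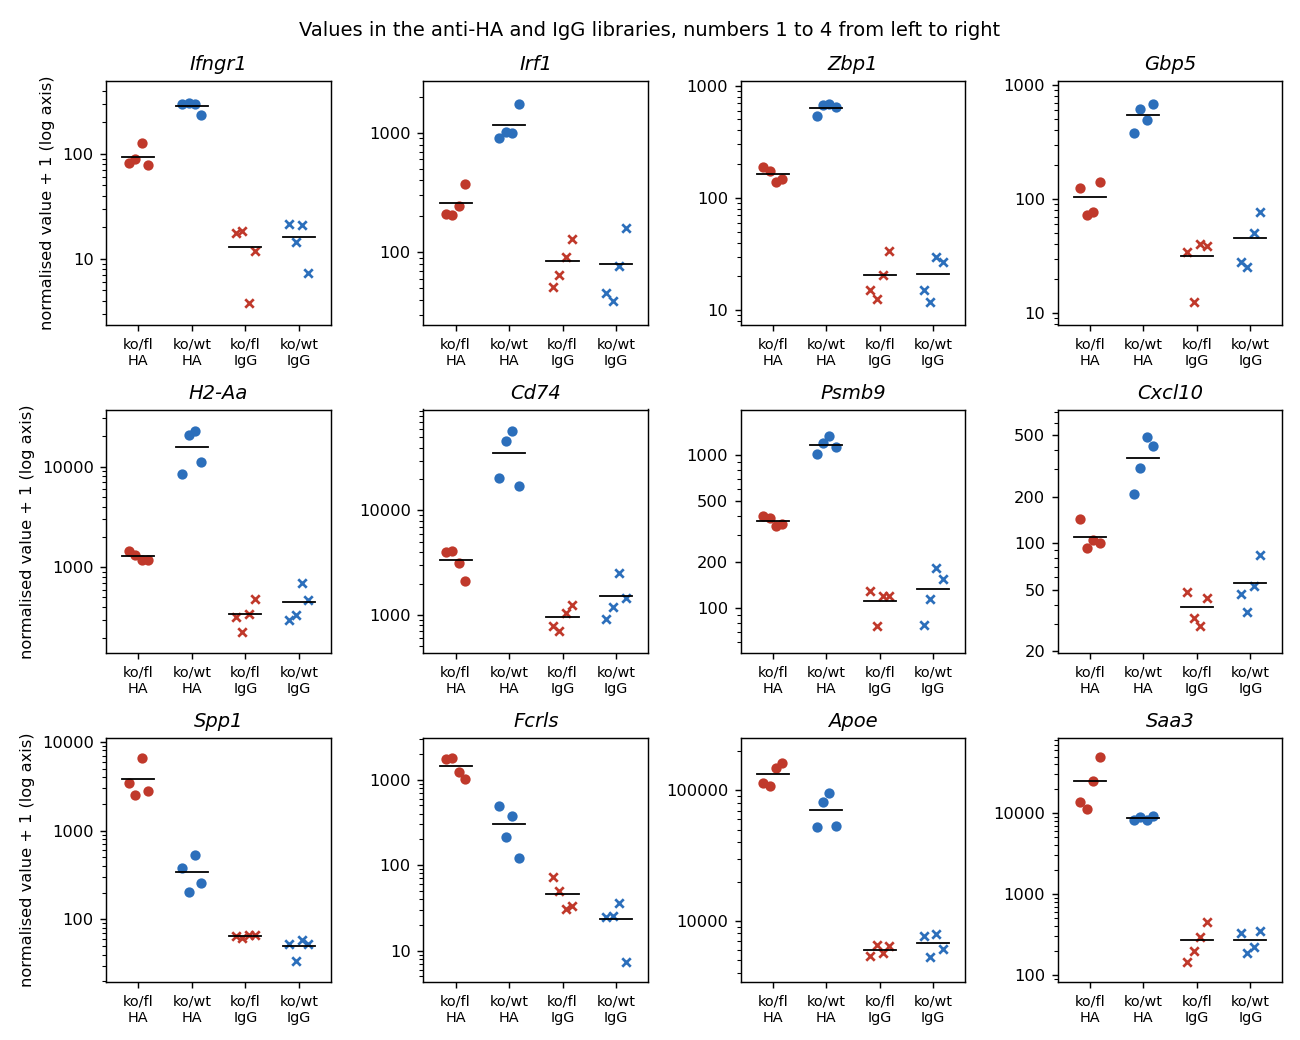
Normalised value + 1 (log axis) of 12 genes in the ko/fl and ko/wt anti-HA and IgG libraries, each point a library and each line a group mean. H2-Aa lies at 1166 to 1459.7 in ko/fl anti-HA libraries and 8392 to 22529.6 in ko/wt ones, while Spp1 shows the reverse order.

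Interferon-inducible GTPases, which attack the vacuoles of intracellular microbes, were lower in ko/fl microglia. Of 25 listed genes 12 were measured, all 12 were called lower (median -2.49, or -2.41 without Gbp4, which has no read in ko/fl), and 9 had libraries that did not overlap. Among all 126 genes lower in ko/fl 125 were called, and the share without overlap was larger, 111. Under median-of-ratios scaling 10 were called, and Irgm1 and Irgm2 missed the threshold (adjusted p = 0.0508 and 0.0643). Anti-HA libraries stood above IgG for 7 of the 12 in ko/wt and for 2 in ko/fl mice, Gbp5 and Gm12250. In the annotation used (GENCODE M21) Gm12250 is classed as a processed pseudogene. Gbp5 had 123, 71.6, 76.7 and 139 in ko/fl and 376, 617, 496 and 683 in ko/wt libraries, a fall to 18.9% of the ko/wt mean (log2 difference -2.41 ± 0.30, SE, limma adjusted p = 0.00017). Gbp2 had 46.4, 24.4, 18.4 and 8.52 in ko/fl and 286, 431, 319.5 and 46.6 in ko/wt libraries. Library 4 was the lowest of each genotype, and ko/wt library 4 lay just above the highest ko/fl library (log2 difference -3.26 ± 0.71, limma adjusted p = 0.0025). Among ko/wt libraries, number 4 was the lowest for 8 of the 12 genes.

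Gbp4 was at 0 in all 4 ko/fl libraries and in all 8 IgG libraries, and had 4.84, 9.09, 3.63 and 4.15 in ko/wt libraries, so no fold is given. Iigp1 had 0, 1.52, 0.970 and 2.84 in ko/fl, which is 3 reads in all, and 21.3, 50.0, 30.3 and 16.6 in ko/wt libraries, without overlap, but its IgG values of up to 27.0 in ko/fl and 17.3 in ko/wt mice reached those of the anti-HA libraries. Igtp and Irgm1 had ko/fl values within or below their IgG range. Gbp2 and its near copy Gbp2b, and the Irgm genes, may share reads.

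The 3 chemokines that bind CXCR3 on activated T cells were all lower. Cxcl9 had the lowest log2 difference of the 204 genes, with 3.95, 0, 2.91 and 0 in ko/fl and 29.1, 50.0, 65.4 and 28.0 in ko/wt libraries. The groups did not overlap, and the ko/fl values did not stand above IgG, which reached 8.63 (log2 difference -4.30 ± 0.57, limma adjusted p = 0.00021). Cxcl10 had 141, 91.4, 104 and 99.4 in ko/fl and 206, 307, 487 and 426 in ko/wt libraries, and was above IgG in both genotypes, where IgG reached 47.5 in ko/fl and 83.1 in ko/wt mice. It fell to 30.6% of the ko/wt mean (log2 difference -1.65 ± 0.30, limma adjusted p = 0.0012), and Cxcl11 to 10.7% (limma adjusted p = 0.0006). The annotation (GENCODE M21) classes Cxcl11 as a polymorphic pseudogene, so its mRNA may not stand for protein.

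Other chemokines went in both directions: of 25 listed genes 5 were measured, 2 called lower and 3 higher. Over all 204 genes 61.3% were called lower and 36.3% higher. Ccl5, an attractant of T cells and monocytes, had 647, 555, 603 and 230.0 in ko/fl and 1529, 3468, 4768 and 825 in ko/wt libraries, a difference of -2.18 ± 0.56 (limma adjusted p = 0.0055). Ccl8, a monocyte attractant, overlapped between genotypes (10.7 to 97.5 in ko/fl, 53.9 to 416 in ko/wt), and its adjusted p of 0.027 rose above 0.05 without ko/fl library 3 or 4 or without ko/wt library 1, 2 or 3 (0.0563 to 0.0754), under median-of-ratios scaling (0.117) and with the IgG mean taken off (0.0996). Ccl3, a macrophage inflammatory protein, rose, with 68.1, 91.4, 70.8 and 62.5 in ko/fl and 18.4, 26.6, 38.7 and 23.8 in ko/wt libraries (log2 difference 1.45 ± 0.27, limma adjusted p = 0.0012). Ccl4, close to Ccl3 in sequence and function, rose to 208% of the ko/wt mean (limma adjusted p = 0.014, or 0.0598 with all 24 libraries in the fit).

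Receptors and cytokine regulators of T cell contact were lower as well. All 5 measured of 28 genes listed under co-stimulation and checkpoint were called lower (median -2.74), as were 125 of all 204 genes (61.3%). The list counts Nos2, an enzyme described in the next paragraph, and the median is the value of Nos2. Il12rb1, a chain of the receptors for IL-12 and IL-23, had 6.91, 1.52, 9.70 and 11.4 in ko/fl and 55.2, 76.6, 76.3 and 118 in ko/wt libraries. The ko/fl values were at the level of their IgG, 9.49 to 14.4, and the groups lay far apart (log2 difference -3.47 ± 0.48, limma adjusted p = 0.00025). Cd40, the receptor for CD40 ligand of T cells, had 72.1, 35.0, 58.2 and 90.9 in ko/fl and 94.5, 158, 174 and 219.7 in ko/wt libraries, just without overlap (log2 difference -1.34 ± 0.36, limma adjusted p = 0.0065), and lost its call under median-of-ratios scaling (adjusted p = 0.111). Il15ra, which presents IL-15 to other cells, was at 29.2% of the ko/wt mean and Il18bp, a secreted inhibitor of IL-18, at 16.8%.

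Among 21 listed macrophage activation genes 4 were measured, and they split by direction. Acod1, which makes itaconate, had 8.89, 13.7, 5.82 and 11.4 in ko/fl and 28.6, 35.1, 69.6 and 56.0 in ko/wt libraries (log2 difference -2.11 ± 0.35, limma adjusted p = 0.0007). Nos2, the inducible nitric oxide synthase, had 2.96, 1.52, 0 and 2.84 in ko/fl and 6.30, 29.2, 24.8 and 12.4 in ko/wt libraries, but stood above IgG in neither genotype. Arg1, the arginase that uses the same substrate as NOS2, went the other way, with 123, 57.9, 417 and 131 in ko/fl and 45.1, 34.4, 12.7 and 37.3 in ko/wt libraries. Each ko/fl library lay above each ko/wt library, with ko/fl library 3 far above its fellows (log2 difference 2.22 ± 0.58, limma adjusted p = 0.0062).

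Of 19 listed complement genes 5 were measured, 4 called lower and 1 higher. Over all 204 genes 61.3% were called lower and 36.3% higher. Cfb, factor B of the alternative pathway, had 156, 145, 208 and 202 in ko/fl and 365, 658, 605 and 497 in ko/wt libraries (log2 difference -1.56 ± 0.26, limma adjusted p = 0.0007), and its ko/fl values overlapped an IgG range of 85.4 to 194. C4b, a component of the classical pathway, was at 40.4% of the ko/wt mean (limma adjusted p = 0.0011). Cfp, properdin, which stabilises the alternative pathway convertase, rose, with 449, 409.9, 453 and 508 in ko/fl and 274, 225, 235 and 197 in ko/wt libraries (log2 difference 0.97 ± 0.21, limma adjusted p = 0.0024). For Serping1, the C1 inhibitor, anti-HA values lay below IgG in all ko/fl libraries, and its call was lost when the IgG mean was taken off (adjusted p = 0.342). C2 and Cfb lie next to each other, and C2 lost its call under median-of-ratios scaling (adjusted p = 0.272).

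Of 52 listed genes of the type I interferon antiviral response the table holds 4, Stat2, Zbp1, Oas3 and Ifi211. All were called lower, as were 125 of all 204 genes (61.3%). Zbp1, a sensor of Z-form nucleic acid, had 186, 172, 139 and 148 in ko/fl and 539, 666, 689 and 642 in ko/wt libraries, above IgG in both (log2 difference -1.97 ± 0.21, limma adjusted p = 0.00014). Oas3, which makes the activator of RNase L, was at 40.3% of the ko/wt mean, and its call was lost under median-of-ratios scaling (adjusted p = 0.0761). Among genes of no list, Ly6a, which encodes the GPI-anchored protein Sca-1, fell to 15.8% and Rspo1, an enhancer of Wnt signalling, to 18.2% (limma adjusted p = 0.00014 and 0.0012). The ko/fl values of both overlapped IgG.

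Spp1 had the highest log2 difference of the 204 genes. It encodes osteopontin, a secreted protein made by activated microglia and macrophages (chr5:104435118-104441050, plus strand), and had 3436, 2488, 6544 and 2780.2 in ko/fl libraries, against 376, 203, 527 and 255 in ko/wt libraries. The lowest ko/fl library lay above the highest ko/wt library by more than 4-fold, and library 3 was the highest in each genotype. Spp1 reached 11.2 times the ko/wt mean, a log2 difference of 3.47 ± 0.39 (SE, n = 4 each, limma adjusted p = 0.00014), over IgG values of 60.4 to 66.0 in ko/fl and 32.4 to 57.8 in ko/wt mice.

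Other genes known from disease-associated microglia rose by less. Of 22 listed genes 5 were measured, 4 called higher and Fabp5, a fatty acid carrier, not called (log2 difference 0.81, limma adjusted p = 0.062, but 0.0047 under median-of-ratios scaling and 0.026 with all 24 libraries in the fit). Over all 204 genes 74 were called higher (36.3%). Apoe, the lipid carrier apolipoprotein E, had 113676, 108218, 147758 and 163258 in ko/fl and 52304, 81262, 95705 and 53694 in ko/wt libraries, without overlap (log2 difference 0.94 ± 0.28, limma adjusted p = 0.01). Ctsd, the lysosomal protease cathepsin D, was at 192% of the ko/wt mean (limma adjusted p = 0.0096), and Cd9, a tetraspanin, at 181% (limma adjusted p = 0.0075). Spp1 thus stood apart within a list whose median difference was 0.92.

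Both homeostatic microglia genes of the table rose. Fcrls, an Fc receptor-like gene that marks resident microglia in mice, had 1718, 1793, 1227 and 1014 in ko/fl and 494, 213, 379 and 119 in ko/wt libraries, without overlap (log2 difference 2.41 ± 0.43, SE, limma adjusted p = 0.0011). Gp9, known from the platelet receptor for von Willebrand factor and also from microglia, had 153, 157, 76.7 and 39.8 in ko/fl and 45.5, 39.6, 46.6 and 12.4 in ko/wt libraries. Its groups overlapped, library 4 was lowest in each, and the adjusted p of 0.022 became 0.058 without ko/fl library 1 or 2. The summed value of the pair was 1054 to 1950.3 in ko/fl and 132 to 539.6 in ko/wt libraries, against IgG sums of 29.5 to 73.6 in ko/fl and 6.40 to 37.6 in ko/wt mice.

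The acute phase and scavenger genes of the table, 3 of 11 listed, were all called higher (median 1.78). Over all 204 genes 74 were called higher (36.3%). Saa3, an acute phase protein that macrophages make, had 13899, 11127, 24922 and 48717 in ko/fl and 8198, 8873, 8227 and 9263 in ko/wt libraries. The ko/wt libraries lay close together, and the ko/fl libraries spread more than 4-fold (log2 difference 1.27 ± 0.42, limma adjusted p = 0.017). Hp, haptoglobin, which binds free haemoglobin, was at 368% of the ko/wt mean, and Cd5l, a secreted scavenger receptor of tissue macrophages, had 6.91, 6.09, 19.4 and 11.4 in ko/fl and 1.94, 0.649, 1.82 and 2.07 in ko/wt libraries, with 0 in all IgG libraries (log2 difference 2.10 ± 0.37, limma adjusted p = 0.001).

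Further genes of no list rose by similar amounts. Ecm1, an extracellular matrix protein, had 412, 335, 1185 and 1374 in ko/fl and 195, 226, 150.1 and 189.6 in ko/wt libraries, with libraries 3 and 4 of ko/fl well above 1 and 2 (log2 difference 1.87 ± 0.46, limma adjusted p = 0.0045). That split was common: libraries 3 and 4 of ko/fl both lay above 1 and 2 for 31 of the 78 genes higher in ko/fl, and both below for 10. Htra3, a secreted serine protease, had 342, 384, 366 and 292 in ko/fl and 147, 114, 89.6 and 111 in ko/wt libraries, with no such split (log2 difference 1.59 ± 0.23, limma adjusted p = 0.0003). Fam20c, a kinase of secreted proteins such as osteopontin, was at 315% of the ko/wt mean, and Mfge8, which bridges dying cells to phagocytes, at 289.7%. In ko/wt mice the anti-HA values of both overlapped IgG. Tmem176a and Tmem176b, membrane proteins of myeloid cells, were at 305% and 248%. Their genes overlap on opposite strands and the strand setting of the counting is not given in the sources used here, so their reads cannot be fully told apart, and Tmem176a lost its call with the IgG mean taken off (adjusted p = 0.0576). H2bc4, a histone H2B gene, was at 250.2% of the ko/wt mean (limma adjusted p = 0.0017).

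Markers of other cells that the table holds moved with genotype in part, and their part in the results above was not tested. Of 14 listed monocyte genes 3 were measured: S100a4 was called higher, Itgal, an integrin chain of leukocytes, called lower, and Fn1, fibronectin, not called (427, 165, 444 and 31.2 in ko/fl, 96.4, 71.4, 56.9 and 25.9 in ko/wt, limma adjusted p = 0.066, but 0.0203 under median-of-ratios scaling and 0.0154 with all 24 libraries in the fit). Their summed value was 185 to 517 in ko/fl and 116 to 193 in ko/wt libraries, against IgG sums of 80.6 to 124 in ko/fl and 103 to 179 in ko/wt mice. Of 11 listed dendritic cell genes Fscn1 was called higher and Clec10a lower, with sums of 1490.4 to 2814 in ko/fl and 908 to 1288 in ko/wt libraries, and IgG sums of 372 to 512 in ko/fl and 341 to 408 in ko/wt mice. Fscn1 made up most of these sums (1389 to 2698 in ko/fl, 644 to 1110 in ko/wt), while Clec10a had 101 to 141 in ko/fl and 132 to 264 in ko/wt. In a separate set of anti-HA libraries Fscn1 averaged 3070 in non-immunized mice and 1305 at EAE max. Which cells carried Fscn1 was not tested. Clec10a lost its call under median-of-ratios scaling (log2 difference -0.08, adjusted p = 0.802), with all 24 libraries in the fit (0.199), and without ko/fl library 3 (0.055) or ko/wt library 1 (0.0591) or 2 (0.069). Of 12 listed oligodendrocyte lineage genes only Cspg4, the NG2 proteoglycan of precursor cells and pericytes, was measured, at 46.4, 18.3, 88.3 and 148 in ko/fl and 7.75, 3.25, 6.66 and 14.5 in ko/wt libraries. It was called higher (limma adjusted p = 0.0024) although the anti-HA libraries were not all above IgG in either genotype, and in ko/wt mice all lay below it.

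The IgG libraries set the background for each gene. Anti-HA libraries stood wholly above the IgG libraries of the same genotype for 121 of the 204 genes in ko/fl (59.3%) and for 136 in ko/wt mice (66.7%), for 99 genes in both and for 46 in neither. Among the 126 genes lower in ko/fl, 61 stood above IgG in ko/fl and 97 in ko/wt mice. The order was the reverse among the 78 higher genes, with 60 in ko/fl and 39 in ko/wt mice. Iqsec1, Ltbp3, Myh10 and Tmem178, chosen after their values were seen, lay below IgG in every anti-HA library of both genotypes. With the genotype's IgG mean subtracted from each anti-HA value, 58 genes were called higher and 114 lower, and no direction turned.

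**Figure D3:**
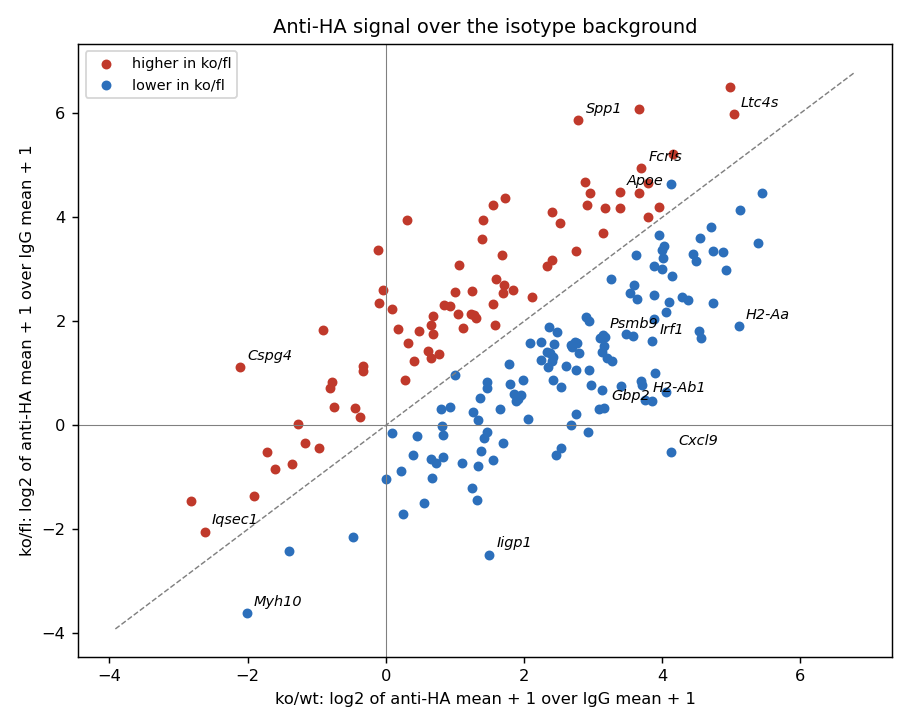
Log2 of the anti-HA mean + 1 over the IgG mean + 1 of each gene, ko/fl mice on the vertical and ko/wt mice on the horizontal axis, coloured by direction in ko/fl, with a dashed line of equal ratios. Before the log, H2-Aa has a ratio of 3.75 in ko/fl and 34.6 in ko/wt mice, and Spp1 one of 59.8 in ko/fl and 7.03 in ko/wt mice.

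In the inputs, which hold RNA of all brain cells, the genotypes differed little over the same genes. The median log2 difference over the 204 genes was -0.015, and 2 genes were called (0.98%), 1 in each direction (0.49%), with 13 at an unadjusted p below 0.05. Fcrls rose, with 33.9, 26.3, 23.8 and 31.7 in ko/fl and 11.4, 4.32, 7.33 and 4.65 in ko/wt inputs, without overlap (log2 difference 1.99 ± 0.28, limma adjusted p = 0.0103). Hcar2, the receptor for niacin and ketone bodies, fell, with 4.17, 2.67, 2.76 and 4.92 in ko/fl and 9.33, 9.95, 9.08 and 15.7 in ko/wt inputs (log2 difference -1.37 ± 0.24, limma adjusted p = 0.0239). Without ko/fl input 1 Fcrls missed the threshold at a log2 difference of 1.91 (limma adjusted p = 0.0568), and it was called without any other single input. Hcar2 missed it without ko/fl input 1, 2 or 3 or any ko/wt input, at log2 differences of -1.45 to -1.20 (limma adjusted p = 0.0527 to 0.110). H2-Aa, with 353 to 1621 in ko/fl and 486 to 1191 in ko/wt inputs, and Spp1, with 108 to 333 in ko/fl and 56.6 to 108 in ko/wt inputs, were not called (limma adjusted p = 1 and 0.28).

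The genotype difference itself differed between anti-HA libraries and inputs for 146 genes (71.6%), tested as an interaction, lower in anti-HA for 100 (49%) and higher for 46 (22.5%). The authors chose the genes for differing in these anti-HA libraries, which raises this count. The count and the interaction p-values below are thus no independent evidence. The interaction fit treats all libraries as independent, although the protocol takes input and pull-down from 1 homogenate. Same-numbered anti-HA and input libraries of a genotype had deviations from the group means that correlated at 0.0253 to 0.363 over genes, the lowest for number 4 in each genotype. A fit with a replicate block of genotype and number called 156 genes, 104 lower and 52 higher, of which 139 are among the 146. H2-Aa had an interaction of -3.35 ± 0.61 (limma adjusted p = 0.00069), Irf1 one of -2.03 ± 0.44 (limma adjusted p = 0.0023), and Ifngr1 one of -1.27 ± 0.37 (limma adjusted p = 0.0087). Spp1 had one of 2.28 ± 0.56 (limma adjusted p = 0.0049). For Fcrls and Hcar2 the interaction was not called (0.42, limma adjusted p = 0.45, and 0.13, limma adjusted p = 0.69), as for Apoe and Saa3 (0.67, limma adjusted p = 0.09, and 0.87, limma adjusted p = 0.24). With the replicate block Saa3 was called (limma adjusted p = 0.0462), and the other 7 genes kept their side of the threshold.

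**Figure D4:**
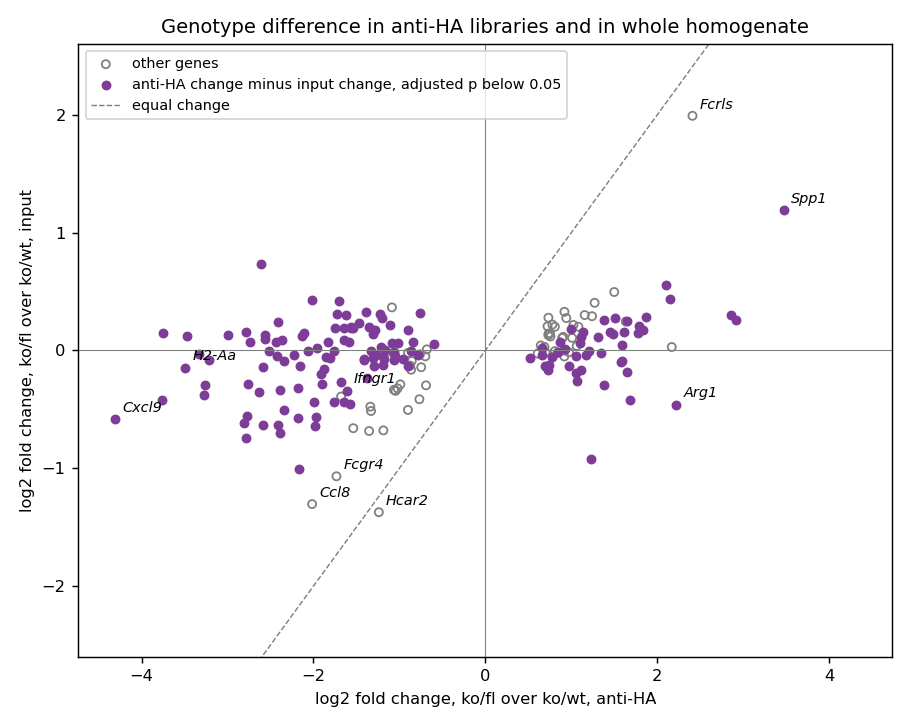
Log2 difference, ko/fl minus ko/wt, of each gene in anti-HA libraries (horizontal) and in inputs (vertical), with filled points where the interaction was called and a dashed line of equal change. Most genes, chosen by the authors on the anti-HA libraries, spread widely along that axis and stay near 0 in inputs. Fcrls lies at 2.41 in anti-HA and 1.99 in inputs.

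The genes were last set beside the disease course, in a separate table of 716 genes that holds anti-HA libraries of EAE max and of non-immunized mice, 6 of each, of genotype Cx3cr1-CreER:RPL22-HA with no Ifngr allele named, and of the same strain. The tables were normalised separately, and the authors chose the 716 genes on those libraries, so levels are compared within a table only. The tables share 115 genes, which is 56.4% of the 204 and 16.1% of the 716. At EAE max 649 of the 716 genes were called against non-immunized (90.6%), 525 higher (73.3%) and 124 lower (17.3%), with a median log2 difference of 1.19. Of the 86 shared genes lower in ko/fl, 85 were called higher at max and 1, Rnase6, was not called (0.91, limma adjusted p = 0.069), with a median of 2.98. Of the 29 shared genes higher in ko/fl, 13 were called higher at max, 12 lower and 4 were not called, with a median of -0.35.

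H2-Aa averaged 24712 ± 9604 at max and 1224.5 ± 454 in non-immunized mice (SD, n = 6 each, log2 difference 4.33, limma adjusted p = 1.1e-08). Irf1 averaged 2029.5 ± 442 at max and 159 ± 39.4 in non-immunized mice (log2 difference 3.69, limma adjusted p = 1.5e-09). Both were thus higher at max and lower in ko/fl. The genes higher in ko/fl were of several kinds. Fcrls averaged 287 ± 211 at max and 2850.3 ± 818 in non-immunized mice, and Gp9 38.9 ± 19.7 at max and 580.4 ± 177 in non-immunized mice, so both were lower at max (limma adjusted p = 2.3e-06 and 7.3e-08). Saa3 averaged 14442 ± 6492 at max and 32.9 ± 13.6 in non-immunized mice and was higher at max as well as in ko/fl. For Spp1, higher at max too (483 ± 383 against 74.2 ± 75.0 in non-immunized mice), the mean over the 6 stages was highest at the stage labelled cure, 1087 ± 1080.5 (SD, n = 5), a difference from max that is within that spread.

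In the authors' clustering of the 716 genes, given as a number for each gene in the authors' deposited table, 62 of the 86 shared lower genes fell in cluster 3 (23.7% of its 262 genes) and 21 in cluster 2. Of the 29 shared higher genes 13 fell in cluster 1 (10.5% of its 124 genes), 9 in cluster 3 and the others in clusters 2, 4, 5 and 6, Spp1 being the gene in cluster 5.

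**Figure D5:**
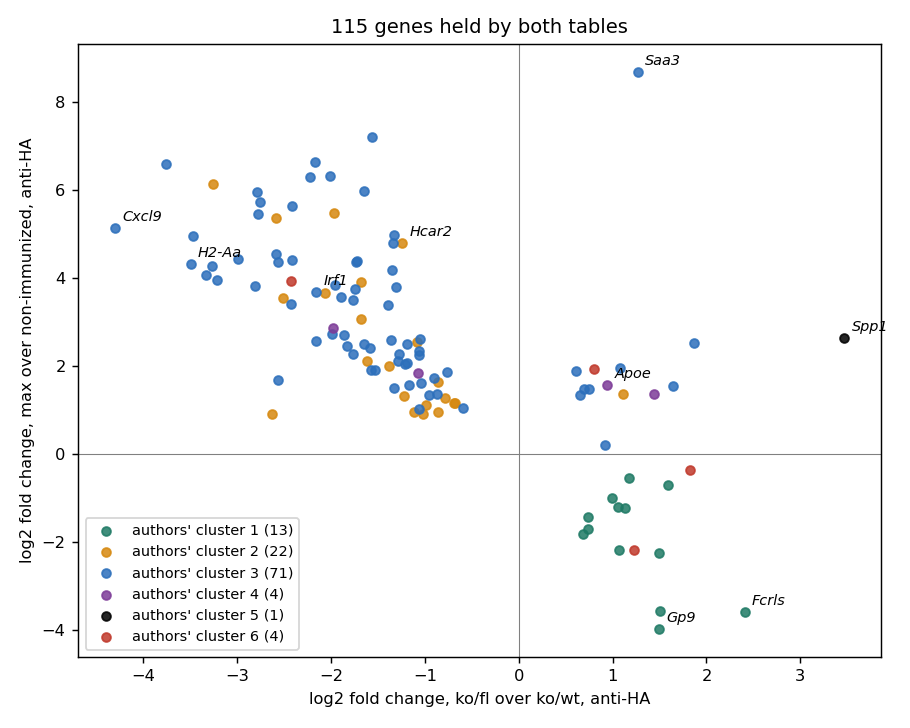
Log2 difference, ko/fl minus ko/wt, against log2 difference, EAE max minus non-immunized, of the 115 genes in both tables, anti-HA libraries, coloured by the authors' cluster. Of the 86 lower genes 85 were called higher at max, and the higher genes lie on both sides of 0 at max.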

How the data were processed

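RNA was measured by sequencing of polyA-captured RNA from anti-HA, IgG and input samples of whole brain, and libraries were grouped by their titles. The deposited unit is a signal, counts per gene scaled by a library size factor, as read from the values: 100% of those above 0 are whole multiples of 1 step per library (tolerance 0.01 of a step plus a relative 1e-07). The submitters' processing notes name the build mm10. Aligner, counter and strand setting were not given in the sources used here. The log2 fold changes and adjusted p-values of the authors' deposited table run ko/wt over ko/fl, per the file headers, and served only to describe how its genes were chosen. The cluster number, another kind of value, is the authors'.

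The deposited signal was tested as log2(value + 1) with limma 3.58.1 (R 4.3.3), genotypes alone for anti-HA and input, and all anti-HA and input libraries of the table for the interaction, with Benjamini-Hochberg adjustment over all genes of a table. Alternatives were a pseudocount of 0.1 or 10, a mean of at least 20, median-of-ratios scaling, limma trend, array weights, edgeR 4.0.16 and DESeq2 1.42.0 on recovered reads, a replicate block, the IgG mean subtracted, all 24 libraries in the fit, each library left out, and, chosen after seeing the data, both libraries numbered 4. The code was tested on simulated data. Positions are from GENCODE M21, which gave 202 of the 204 genes 1 position. Depth covers only the listed genes.

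The text names, by rule, the 12 highest and 12 lowest log2 differences among called genes above the median level (96.4), up to 4 genes of each list with 3 or more measured, and the pathway's best-known genes, 66 in all. A further 31 were chosen after their values were seen. 1 gene of the rule is not reported here. The comparison and the 32 lists were chosen with earlier results of these data known.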

Additional observations from a re-analysis of the deposited data

Results flagged for a closer look

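In the anti-HA groups of 4, the highest or lowest library stood apart from the other 3 by Dixon's test in 15 of 192 groups of named genes. For independent groups chance flags about 1 in 20. These groups share libraries, and 31 of the genes were chosen after their values were seen, so the rates cannot be compared. In 12 of the 15 groups the library apart was number 4, the shallowest of each genotype. In ko/fl microglia library 4 was the lowest for Ccl5 (230.0), H2-M3 (42.6), Psme1 (497) and Tmem176a (304), and the highest for H2-Q6 (48.3) and Stat2 (133). In ko/wt microglia library 4 was the lowest for Fcgr4 (115), Gp9 (12.4), Ifngr1 (232), Tmem176b (442) and Vcam1 (5.18), and the highest for Mfge8 (224). For Vcam1, an adhesion molecule for leukocytes, the other ko/wt libraries had 47.0, 53.2 and 45.4, against 8.52 to 15.5 in ko/fl, and the difference was called without ko/wt library 4 (limma adjusted p = 0.000408). The other cases were Ciita in ko/fl library 3 (0), and Cd5l (0.649) in library 2 and Psme2 (1495) in library 1 of ko/wt.

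The genotype difference in anti-HA libraries differed from that in inputs for 146 genes by the interaction test, a count raised by the choice of genes on the anti-HA libraries. The values of such genes stand beside the input comparison above.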

How the results depend on the processing

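Leaving out single anti-HA libraries gave 53 to 71 genes higher and 114 to 122 lower in ko/fl, the fewest of each without ko/wt library 2, and without both libraries numbered 4 the counts were 67 higher and 125 lower. In the anti-HA comparison only median-of-ratios scaling moved a count beyond 1.5 times, to 72 genes lower. For the interaction that scaling gave 75 higher and 48 lower, and leaving out libraries gave 27 to 47 higher (27 without ko/fl input 1, 29 without ko/wt anti-HA library 2, 30 without ko/fl anti-HA library 3 or ko/wt input 1) and 88 to 104 lower. At EAE max the scaling gave 231 higher and 192 lower. The scaling takes genes that were selected for differing as its base. In the inputs, a mean of at least 20 gave 0 higher and 0 lower, since neither called gene passes that filter, edgeR and a pseudocount of 10 gave 0 lower, and leaving out libraries gave 0 to 1 in each direction. Signs turned for the interaction of Ccl8 under median-of-ratios scaling (0.0286) and of Hcar2 with a pseudocount of 10 (-0.573, adjusted p = 0.0318) or single libraries left out (-0.0353 to 0.262), for H2-Aa in inputs with single libraries left out (-0.516 to 0.216) and for Rnase6 at max under median-of-ratios scaling (-0.0331), none of them called as reported above, and the cause was not tested. Over the named genes of the anti-HA comparison, 1840 values kept direction and side of the threshold, 65 lost the call and 26 gained one. Same-numbered libraries of the genotypes deviated together with correlations of -0.02, 0.28, -0.04 and 0.58. The 0.58 of number 4 was the highest between any ko/fl and any ko/wt library. The labels name no pairing by number, and these correlations do not settle whether the numbers pair samples. A fit with the replicate block called 78 higher and 126 lower. Depth limits genes of a few reads, such as Gbp4, Iigp1, Cd5l and Ciita, and the IgG background.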
